A study of Homo sapiens with 36 samples.

Results

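The 38 named HOX genes lie in 4 clusters, and the chromatin of those clusters was measured here by chromatin immunoprecipitation in K562, a human leukaemia cell line that grows in suspension. The clusters were taken as fixed hg19 intervals with bounds set by position and not by any measured value, with 100 kb on either side as flanks. They were chosen with earlier results of these data known. HOXA spans chr7:27130001-27255000 (125 kb, 10 members), HOXB spans chr17:46605001-46810000 (205 kb, 10 members), HOXC spans chr12:54330001-54450000 (120 kb, 9 members) and HOXD spans chr2:176940001-177060000 (120 kb, 9 members). Together they make 570 kb of a 3035 Mb span, and their members are 38 of the 20056 protein-coding genes in the RefSeq table. The lists come from 22 libraries. Each list holds islands, which are stretches enriched in reads over what the caller takes as background, with the number of reads in each. The measure used throughout is the percent of a region that lies inside islands, called coverage.

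The series profiled macroH2A1, macroH2A1.2 and γH2AX in K562 cells that were untreated or received aphidicolin, a DNA polymerase inhibitor that slows replication forks, and asks where these marks stand before and after replication stress. For macroH2A1 there were 2 untreated and 2 aphidicolin libraries, and for macroH2A1.2 likewise 2 and 2. For γH2AX there were 5 untreated and 5 aphidicolin libraries of K562, and 1 of each from a line labelled 2A3, which the labels do not describe further. MacroH2A1.2 was also profiled once in untreated K562 with the control hairpin sh-RFP and once with sh-mH1.2, whose name refers to macroH2A1.2. The labels do not say whether these are clones or pools. Sample titles are written in 4 styles, and libraries of one style are called a title set here, since they may be separate experiments. MacroH2A1 is in set 1 and macroH2A1.2 in set 2, so a difference between the antibodies and a difference between these sets cannot be told apart. The γH2AX libraries of K562 are in sets 1 and 2, with 2 per treatment in each, and in set 3, with 1 per treatment. The labels give aphidicolin no dose with a unit and no time.

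HOX genes encode homeodomain transcription factors that give cells their position along the body axis, and their order on the chromosome follows the order in which they are used along that axis. Where they are silent, the clusters are classical territories of Polycomb repression, and where they are active they carry Trithorax-type marks over long unbroken stretches. MacroH2A1 is an H2A variant with a large macro domain and macroH2A1.2 is a splice form of it. It forms broad domains in inactive chromatin, the inactive X chromosome being the best known. γH2AX is H2AX phosphorylated on its tail, a mark that spreads around DNA breaks and stalled forks.

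The paralogue groups run in one order within each cluster. In the RefSeq table HOXA runs from HOXA2 to HOXA13 with rising position, HOXB runs from HOXB1 to HOXB13, HOXC runs from HOXC13 down to the overlapping genes HOXC4, HOXC5 and HOXC6, and HOXD runs from HOXD13 to HOXD1. The genes with low numbers (HOXB1, HOXA2, HOXD1) act towards the head end, and those with high numbers (HOXA13, HOXC13, HOXD13) act towards the tail end, in the limbs and in the urogenital tract. HOXB13 stands apart from the other HOXB genes, across a long interval without another member. No hg19 annotation was used here, so islands were placed along each cluster but not on single genes, exons or promoters. The start of a cluster below means its end with the lower coordinate.

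Promoters at the ends of HOXA and HOXD are shown because HOXA had no island in any list and the macroH2A1 islands of HOXD were short and scattered. Each sequence is the 250 bases before the annotated start, read 5′ to 3′ on the gene's strand, with every CG dinucleotide in capitals. Sequences and their positions are from RefSeq on GRCh38.p14, a build whose positions do not match the hg19 positions of the islands.
HOXA2 promoter, chr7:27102684-27102933, minus strand: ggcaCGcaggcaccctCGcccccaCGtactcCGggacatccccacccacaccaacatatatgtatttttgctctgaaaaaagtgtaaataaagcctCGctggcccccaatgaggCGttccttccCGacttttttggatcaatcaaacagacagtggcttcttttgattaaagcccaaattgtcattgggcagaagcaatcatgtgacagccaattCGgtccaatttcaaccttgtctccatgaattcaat
HOXA13 promoter, chr7:27200092-27200341, minus strand: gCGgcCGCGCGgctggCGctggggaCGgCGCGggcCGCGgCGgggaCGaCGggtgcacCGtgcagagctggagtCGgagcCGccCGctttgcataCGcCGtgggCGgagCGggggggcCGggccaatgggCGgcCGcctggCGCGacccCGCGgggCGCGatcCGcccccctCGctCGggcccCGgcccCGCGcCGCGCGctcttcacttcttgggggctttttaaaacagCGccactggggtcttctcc
HOXD13 promoter, chr2:176092471-176092720, plus strand: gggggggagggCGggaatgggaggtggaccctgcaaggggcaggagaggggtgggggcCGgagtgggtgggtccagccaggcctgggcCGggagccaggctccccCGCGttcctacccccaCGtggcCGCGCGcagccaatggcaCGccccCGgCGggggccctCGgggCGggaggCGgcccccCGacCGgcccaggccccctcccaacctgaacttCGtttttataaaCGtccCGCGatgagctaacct
HOXD1 promoter, chr2:176188418-176188667, plus strand: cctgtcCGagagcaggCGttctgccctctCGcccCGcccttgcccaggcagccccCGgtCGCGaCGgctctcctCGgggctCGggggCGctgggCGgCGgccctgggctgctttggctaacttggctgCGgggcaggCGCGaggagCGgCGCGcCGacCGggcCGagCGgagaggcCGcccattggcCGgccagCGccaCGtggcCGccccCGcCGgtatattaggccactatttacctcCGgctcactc
The table held promoters of 20 of the 38 members, 9 of HOXA, 1 of HOXB, 2 of HOXC and 8 of HOXD. HOXA2 has 8 CG dinucleotides in its 250 bases and HOXA13 has 40, while HOXD13 has 21 and HOXD1 has 31. The median over the 20 members was 21 against 17 over 15843 protein-coding genes, counting CG, which reads the same on both strands. At least 1 CG was present in 96.3% of the members' promoters and in 96.8% of all promoters of that length. The ratio of observed to expected CG was at least 0.6 in 17 of the 20 members (85%) and in 61.5% of all genes. HOXA9 had the highest ratio, 1.34, and HOXD4 (0.287), HOXB1 (0.343) and HOXA3 (0.582, a mean over 7 promoters) had the lowest.

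Of the microRNA genes in the clusters, 4 are described here. MIR196B lies between HOXA9 and HOXA10, MIR196A1 between HOXB9 and HOXB13, MIR196A2 between HOXC10 and HOXC9, and MIR10A between HOXB4 and HOXB5. They are shown because the 196 family has a gene in 3 clusters of very unequal macroH2A coverage and all share 1 seed. The seed, bases 2 to 8, is in capitals.
hsa-miR-196b-5p: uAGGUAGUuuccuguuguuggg
hsa-miR-196a-5p: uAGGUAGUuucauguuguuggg
hsa-miR-10a-5p: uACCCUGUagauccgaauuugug
The 196a and 196b forms have the seed AGGUAGU in common, while miR-10a has ACCCUGU. MIR196A1 and MIR196A2 give the same mature sequence.

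The lists differed in size, which bears on every value below. The 8 macroH2A lists without a hairpin covered 7.96% to 14.4% of the span, and the macroH2A1 lists held 102 to 119 reads per kb of island against 33.4 to 41.0 for macroH2A1.2. The sh-RFP list covered 13.8% and the sh-mH1.2 list 0.781%. The γH2AX lists of untreated K562 covered 1.27% to 2.81%. Of the aphidicolin lists of K562, those of set 1 covered 5.92% and 7.75%, replicate 1 of set 2 covered 7.27%, and replicate 3 of set 2 and the library of set 3 stayed at 2.40% and 2.13%, within the untreated range. The number of reads sequenced is unknown, so an absent island means that the caller listed none, not that the histone was absent.

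HOXA was bare. No macroH2A1, macroH2A1.2 or γH2AX island touched its 125 kb in any of the 22 lists, so the coverage around HOXA2 to HOXA13 was 0% in every group. The empty stretch was longer than the cluster. In the 8 macroH2A lists it ran from 10 kb before the cluster to the far edge of the right flank, chr7:27120001-27355000, at least 235 kb. The left flank ended it, with coverage of 4.40% and 6.40% in untreated and 14.0% and 18.0% in aphidicolin libraries for macroH2A1, and 8.80%, 4.40%, 9.0% and 5.80% in the same order for macroH2A1.2. Empty stretches of this kind are common in these lists. Among all windows of 125 kb, 44.1% had no island in the 8 macroH2A lists and 25.0% had none in all 22, and 8.76% of the 21886 empty stretches of 5 kb or more were at least 235 kb long.

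**Figure D1:**
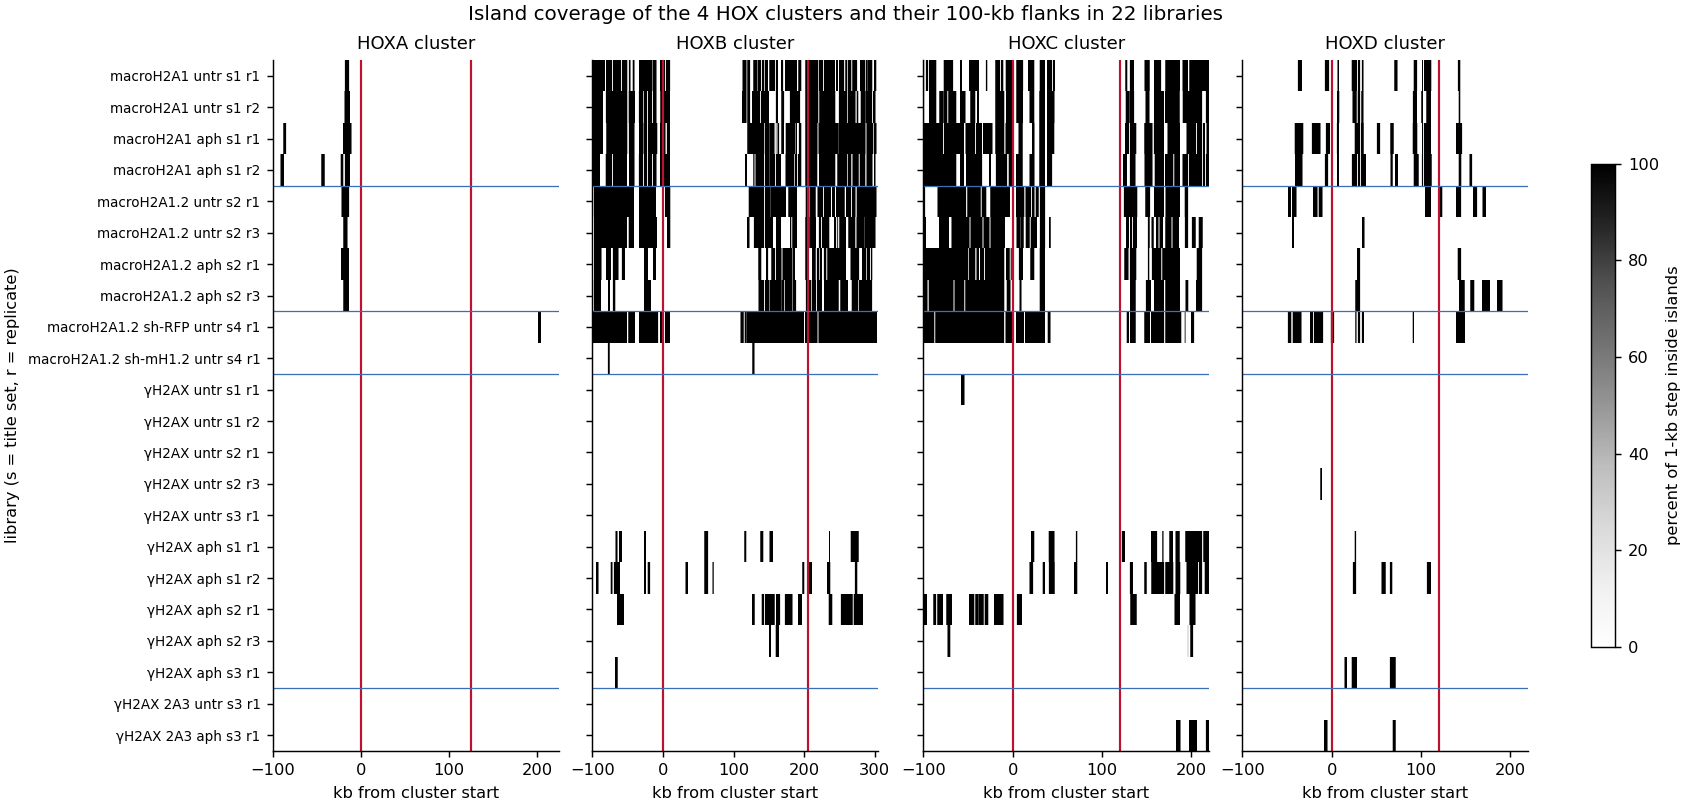
Percent of each 1-kb step inside islands (grey scale) along the 4 HOX clusters and their 100-kb flanks, with 1 row per library and distance from the cluster start in kb on the x axis. Red lines mark the cluster edges and blue lines separate the kinds of library. HOXA is empty in all 22 rows, HOXB and HOXC have densely covered flanks and an empty stretch inside, and HOXD has short separate islands.

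HOXB had the highest macroH2A coverage of the clusters. MacroH2A1 covered 36.5% and 33.4% of it in untreated cells and 36.6% and 34.6% after aphidicolin, while macroH2A1.2 covered 35.9% and 27.2% in untreated cells and 20.8% and 24.7% after aphidicolin. The mean was 35.3% ± 1.55 (SD, n = 4, both treatments) for macroH2A1 and 27.1% ± 6.41 for macroH2A1.2. These are 2.80 and 2.91 times the coverage of the whole span, and 13.4% of windows of the same length were at least as covered in the mean of the 8 libraries. The coverage was uneven along the cluster. A stretch of 100 kb without a macroH2A island in any of the 8 libraries, chr17:46617001-46717000, began 12 kb into the cluster from its HOXB1 end. The islands lay in the 12 kb before it and in the 93 kb after it, towards HOXB13.

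Inside HOXB the macroH2A1 libraries had 11 to 14 islands each and the macroH2A1.2 libraries 6 to 8. Of the 205 steps of 1 kb, 41 were at least 50% covered in all 4 macroH2A1 libraries, 26 in all 4 macroH2A1.2 libraries and 15 (7.32%) in all 8. In the flanks the last share was 28.0%. No run of 5 such steps occurred in HOXB, and the longest run for macroH2A1 alone was 10 kb, chr17:46733001-46743000.

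HOXC was covered on 1 side only. MacroH2A1 covered 25.3% and 24.2% of it in untreated cells and 20.2% and 21.8% after aphidicolin, while macroH2A1.2 covered 24.5% and 22.8% in untreated cells and 12.5% and 7.5% after aphidicolin. All macroH2A islands of the 8 libraries lay in the first 48 kb, at the HOXC13 end. The remaining 72 kb, chr12:54378001-54450000, up to the end where HOXC4, HOXC5 and HOXC6 lie, had none, and with 4 kb of the right flank the empty stretch measured 76 kb. HOXC held the only run of at least 5 kb that was at least 50% covered in all 8 macroH2A libraries in any cluster, chr12:54361001-54366000, 31 kb from the cluster start. MacroH2A1 had a further run in all 4 of its libraries at chr12:54336001-54342000.

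HOXD differed between the antibodies. MacroH2A1 covered 26.2% and 22.7% of it in untreated cells and 29.0% and 33.8% after aphidicolin, in 7 to 9 short islands per library. MacroH2A1.2 covered 5.83% and 3.0% in untreated cells and 2.67% and 5.00% after aphidicolin, in 1 island per library. Every macroH2A1 library was above every macroH2A1.2 library, which was not so in HOXB or HOXC. The means were 2.19 times the coverage of the whole span for macroH2A1 and 0.436 times for macroH2A1.2. The 4 macroH2A1 libraries had 21 of 120 steps in common, the longest run being chr2:177046001-177052000, towards HOXD1, and the 4 macroH2A1.2 libraries had none in common. The untreated sh-RFP library of macroH2A1.2, from another title set, covered 10.7% of HOXD, between the macroH2A1 and the other macroH2A1.2 values.

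**Figure D2:**
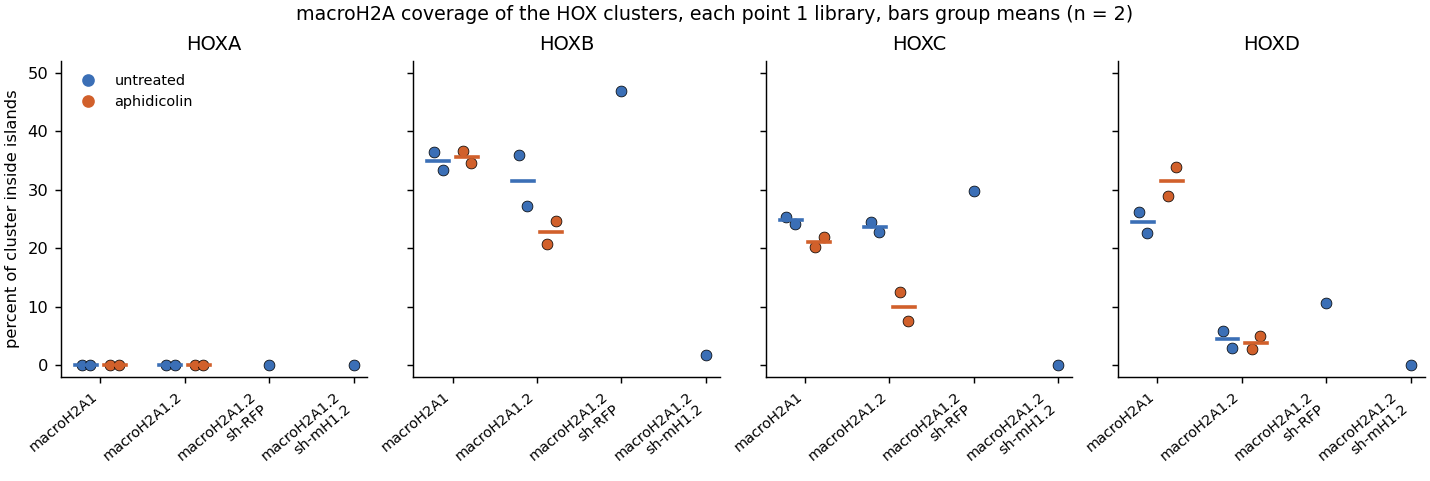
Percent of each HOX cluster inside macroH2A islands (y axis), with 1 point per library and bars at the means of groups of 2, for macroH2A1, macroH2A1.2 and the 2 hairpins (x axis). HOXA is at 0 throughout, HOXB is highest, and in HOXD the macroH2A1 points (22.7% to 33.8%) lie above all macroH2A1.2 points.

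The clusters were ranked within libraries, so that each library served as its own reference. Over the 8 macroH2A libraries HOXB was above HOXC by 11.4 percentage points ± 4.22 (SD, 8 of 8 libraries) and above HOXD by 15.2 ± 9.56 (8 of 8). HOXA, at 0% in every library, can only lie at or below the others, so the outcome of its contrasts was fixed and they are not read as tests. For both differences of HOXB the exact two-sided sign-flip permutation test gave p = 0.007812 each, the smallest it can give with 8 libraries, and p = 0.009766 after adjustment over 10 contrasts. HOXC was above HOXD in 5 of 8 libraries, by 3.83 ± 11.7 points (exact p = 0.367), with HOXD higher in 3 of the 4 macroH2A1 libraries and HOXC higher in all 4 macroH2A1.2 libraries. The 8 libraries come from 1 cell line and 2 antibodies, and the labels do not name separate cultures for the replicates, so these p-values measure only the spread between libraries, which may be technical. With each list shortened to equal covered length the excess of HOXB over HOXC (0.180 points, adjusted exact p = 0.953) and that of HOXB over HOXD (9.99 points, 0.166) did not pass, while HOXC against HOXD did (9.81 points, 0.0195).

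HOXB and HOXC were less covered than their flanks, and HOXD did not pass that test. The HOXB flanks had a mean coverage of 67.3% on the left and 80.7% on the right, and the HOXC flanks 77.8% and 59.1%. The cluster differed from the mean of its flanks by -42.8 ± 8.20 points in HOXB and by -48.6 ± 11.6 points in HOXC, lower in 8 of 8 libraries each (exact p = 0.007812, adjusted 0.009766), and both still passed with equal covered length. The difference in HOXD was 8.03 ± 14.1 points (higher in 6 of 8 libraries, exact p = 0.133). There the 4 macroH2A1 libraries were all above (mean 20.3) and the macroH2A1.2 libraries were split 2 to 2 (mean -4.20). Among the 1-kb steps without an island in any of the 8 libraries, HOXB had 51.7% against 5.0% in its flanks, HOXC had 62.5% against 6.0%, and HOXD had 52.5% against 60.0%.

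**Figure D3:**
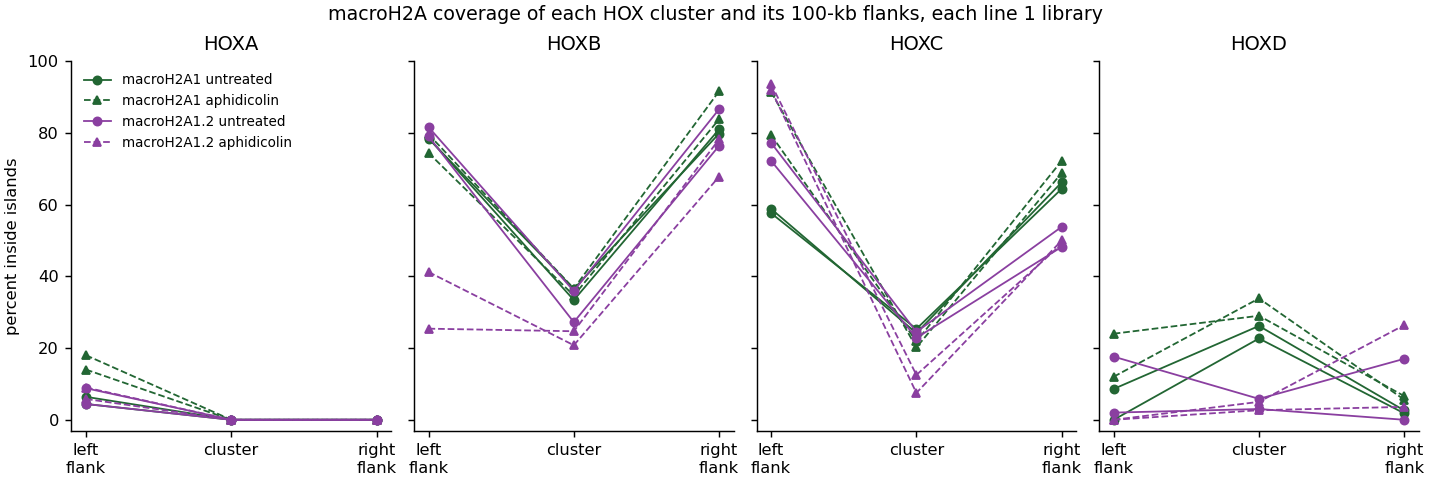
Percent of each HOX cluster and of its left and right 100-kb flank inside macroH2A islands (y axis), with 1 line per library, solid for untreated and dashed for aphidicolin. Lines dip at the cluster in HOXB and HOXC, and the 2 macroH2A1.2 aphidicolin lines start low in the left flank of HOXB, at 41.2% and 25.4%.

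MacroH2A1.2 coverage of HOXC fell after aphidicolin in limma, and neither HOXB nor HOXD passed that test. On reads in islands edgeR and DESeq2 each called 2 of 3 clusters lower, HOXC and HOXB (adjusted p in HOXB 0.0446 and 2.78e-05). Over all 12345 regions edgeR called 1681 lower and 1985 higher, and DESeq2 called 3043 lower and 3089 higher. In HOXC the untreated libraries (24.5% and 22.8%) did not overlap with the aphidicolin libraries (12.5% and 7.5%), and coverage fell by 13.7 points (SE 2.67, limma adjusted p = 0.0465). That makes 1 of 3 clusters tested lower, where 6.74% of all 12345 regions tested were called lower and 15.2% higher. With equal covered length the calls over the genome were 855 higher and 1180 lower, against 1881 and 832, and the difference in HOXC was -15.4 points. Leaving out any 1 of the 4 libraries gave -16.2 to -11.2 points with a limma adjusted p between 0.108 and 0.164, so the call was lost each time. The difference in HOXB was -8.83 points (SE 4.00, limma adjusted p = 0.194), between -13.2 and -4.49 without 1 library, and that in HOXD was -0.583 points (limma adjusted p = 0.879).

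The left flanks of HOXB and HOXC changed in opposite directions for macroH2A1.2, and neither right flank passed (-8.50 points in HOXB, limma adjusted p = 0.337, and -1.50 in HOXC, 0.728). The left flank of HOXB, next to the HOXB1 end, went from 81.6% and 79.0% in untreated cells to 41.2% and 25.4% after aphidicolin, a difference of -47.0 points (SE 6.28, limma adjusted p = 0.0255). The left flank of HOXC, next to the HOXC13 end, went from 77.2% and 72.2% to 93.6% and 92.0%, a rise of 18.1 points (SE 2.66, limma adjusted p = 0.0295). HOXC and its left flank therefore moved in opposite directions across the cluster edge, and the cluster and both flanks as one region differed by 0.0625 points (limma adjusted p = 0.990). Among the fits of these left flanks with other settings, 9 kept the call and 7 lost it. The highest adjusted p in limma, edgeR or DESeq2 was 0.205 in HOXB and 0.212 in HOXC. Without any 1 library neither flank passed, with limma adjusted p from 0.0653 to 0.0821 in HOXB and from 0.0677 to 0.136 in HOXC.

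MacroH2A1 did not change past the threshold in any cluster. The difference was 0.683 points in HOXB (SE 1.93, limma adjusted p = 0.843), -3.75 in HOXC (SE 1.53, adjusted p = 0.199) and 7.00 in HOXD (SE 2.65, adjusted p = 0.179). Over all 12742 regions 6.69% were called higher and 0.110% lower. None of the 3 clusters had an unadjusted p below 0.05 in limma. On reads in islands edgeR called 0 of 3, where it called 14 regions higher and 0 lower over the genome. DESeq2 called HOXB and HOXC lower, where it called 2721 of the 12742 regions lower and 2440 higher. With equal covered length the differences in HOXB and HOXD turned to -6.34 and -5.50 points, and leaving out 1 library moved HOXB between -0.879 and 2.24, so no direction is given for either. The left flank of HOXC had 57.6% and 58.8% untreated and 91.4% and 79.4% after aphidicolin, which did not pass (27.2 points, limma adjusted p = 0.0667). Whether the 2 antibodies responded differently was not tested.

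At 10-kb resolution 3 windows in the clusters were called lower for macroH2A1.2 after aphidicolin. The count was 0 without any 1 of the 4 libraries and in edgeR, where 0 windows were called over the whole genome too. With no filter on covered rows it was 0, where 0.249% of genome windows were called lower. DESeq2 called 7 of 16 lower (43.8%), where it called 19.2% lower and 19.1% higher over the genome. In HOXC the window chr12:54340001-54350000, 10 kb from the HOXC13 end, went from 90% and 80% to 20% and 6%, a difference of -72 points (limma adjusted p = 0.0398). In HOXB the window chr17:46610001-46620000, at the HOXB1 end, went from 64% and 54% to 0% in both libraries (-59 points, limma adjusted p = 0.0284). In HOXB the window chr17:46720001-46730000, just past the empty stretch, went from 34% and 36% to 0% in both (-35 points, limma adjusted p = 0.0220). The first of these HOXB windows overlaps the lower edge of the empty stretch, and the second begins shortly past its upper edge. These are 3 of the 16 cluster windows covered in at least 2 libraries, 18.8%, where 4.43% of 55928 windows over the genome were called lower and 7.26% higher. The 2 HOXB windows had macroH2A1.2 islands in the untreated libraries only. They passed that filter through the group where they are high and could only come out lower, so 18.8% is not read as an excess. With equal covered length the genome-wide counts were 2288 higher and 3194 lower.

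Other HOXB windows had differences as large that did not pass. The window chr17:46730001-46740000 went from 100% and 62% to 0% in both libraries (-81 points, limma adjusted p = 0.0977), so that the 20 kb from 46720001 held no macroH2A1.2 island in either aphidicolin library. Nearer to HOXB13, chr17:46780001-46790000 went from 68% and 42% to 92% in both (37 points, limma adjusted p = 0.171), the largest positive difference for macroH2A1.2 in a cluster. In HOXD the largest for macroH2A1.2 was chr2:176960001-176970000, from 0% in both untreated libraries to 10% and 38% (24 points, limma adjusted p = 0.324).

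For macroH2A1, limma called 0 of 24 cluster windows, 1 of them with unadjusted p below 0.05 for a higher value and 2 for a lower value, where 3.94% of 64635 windows were called higher and 0.430% lower. With equal covered length the genome-wide counts were 1068 higher and 1022 lower, against 2546 and 278. The largest negative difference was again near the border of the HOXB empty stretch, chr17:46720001-46730000, from 76% in both untreated libraries to 48% and 28% (-38 points, limma adjusted p = 0.218). The largest positive one was in HOXD, chr2:177000001-177010000, from 0% in both untreated libraries to 36% and 24% (30 points, limma adjusted p = 0.153). In HOXB chr17:46760001-46770000 had 72% and 40% untreated and 78% and 92% after aphidicolin (29 points, limma adjusted p = 0.535). In HOXC the extremes were 2 and -14 points, neither past the threshold, and in HOXD the most negative was -8 points.

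**Figure D4:**
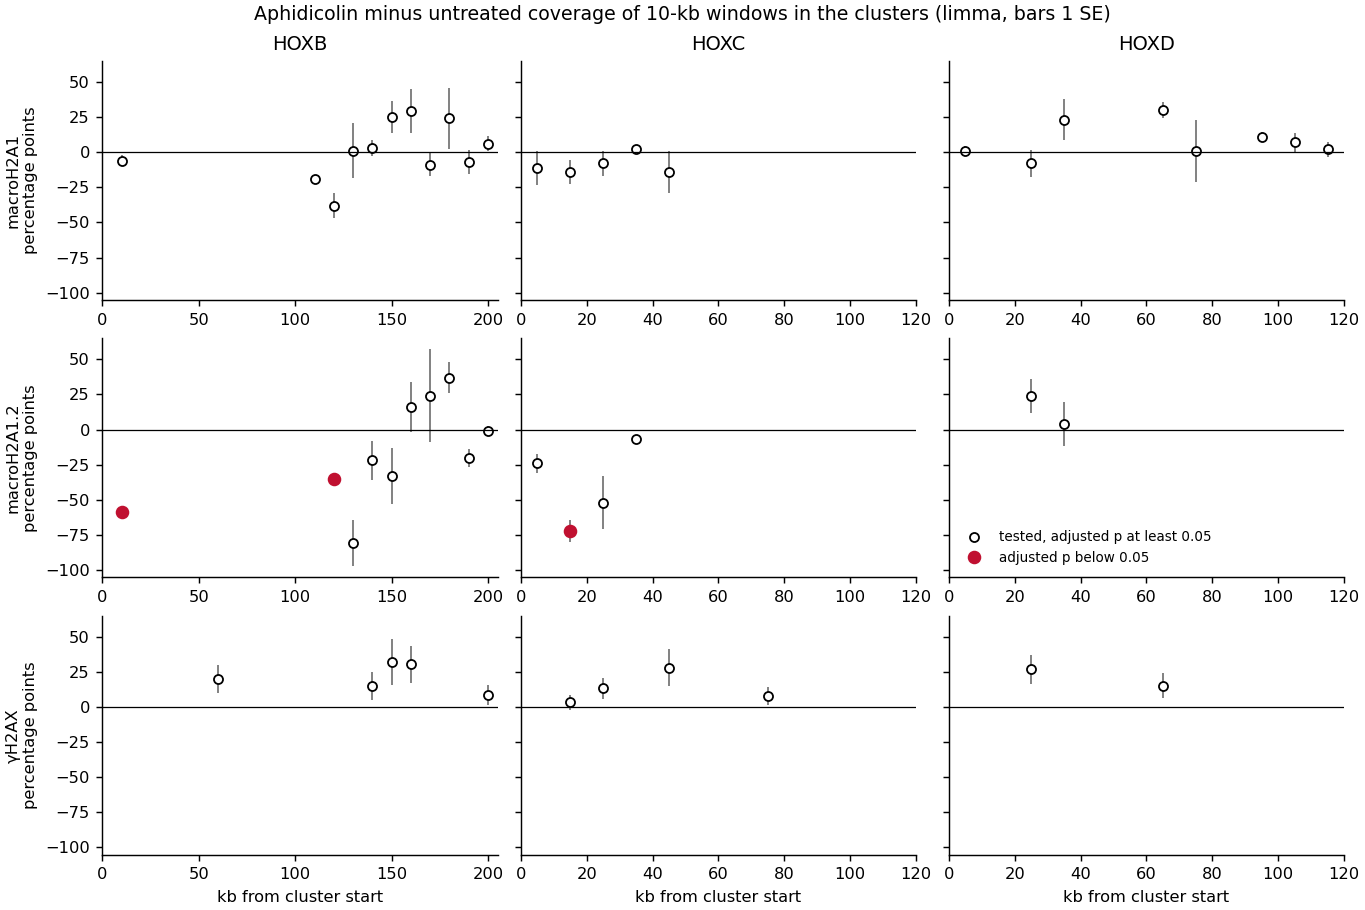
Difference in coverage between aphidicolin and untreated libraries, in percentage points with bars of 1 SE, for each 10-kb window tested in HOXB, HOXC and HOXD (x axis, kb from the cluster start), for macroH2A1, macroH2A1.2 and γH2AX (rows). Filled red points are the 3 windows past adjusted p 0.05, all lower and all macroH2A1.2, at -59 and -35 points in HOXB and -72 in HOXC.

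γH2AX islands appeared in 3 of the 4 clusters, in aphidicolin libraries only, though no cluster passed in limma. All 5 untreated K562 libraries had 0% in every cluster. Empty windows are common in these lists. Among windows of 120 kb, the length of HOXC and HOXD, 78.2% to 89.7% had no γH2AX island in each untreated library. In the 5 aphidicolin libraries 69.8% to 86.3% of such windows had none. After aphidicolin HOXB had 8.49% and 6.44% in set 1, 20.9% and 3.8% in set 2 and 0% in set 3. HOXC had 10.0% and 16.0% in set 1, 5.17% and 0% in set 2 and 0% in set 3. HOXD had 2.17% and 13% in set 1, 0% in both libraries of set 2 and 12.5% in set 3. HOXA stayed at 0% in all 5. So 4 of 5 aphidicolin libraries had an island in HOXB, 3 of 5 in HOXC and 3 of 5 in HOXD, and the 2 libraries of set 1 had islands in all 3.

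The mean difference was 7.92 points in HOXB (limma adjusted p = 0.133), 6.23 in HOXC (0.132) and 5.53 in HOXD (0.17). The exact permutation test within title sets, whose smallest p is 0.0278 without ties, gave two-sided p = 0.0556 for HOXB, 0.167 for HOXC and 0.167 for HOXD. Untreated values were all 0 and some aphidicolin values were 0 too, and such ties raise the smallest p. Each of these exact p-values is the lowest its values allow, so this test could not pass 0.05 and nothing is drawn from it. Over 13463 regions 3.79% were called higher and 1.34% lower. None of the 3 clusters had an unadjusted p below 0.05 in limma. On reads in islands edgeR called HOXB and HOXD higher (adjusted p = 0.00480 and 0.0477) and DESeq2 called all 3. These tools called far more than limma elsewhere too, with 18.3% of 10-kb windows over the genome higher in edgeR and 44.7% in DESeq2. In 10-kb windows limma called 0 of the 11 tested, 2 with unadjusted p below 0.05, where 8.21% of 58455 were called higher and 1.82% lower, and with equal covered length the counts were 570 higher and 411 lower against 4799 and 1066. The 3 clusters and these 11 windows had γH2AX islands in aphidicolin libraries only. They passed the filter through that group and could only come out higher, so the shares over the genome are not a like reference. The largest difference per cluster was 32.0 points at chr17:46750001-46760000 in HOXB, 28.0 at chr12:54370001-54380000 in HOXC and 26.8 at chr2:176960001-176970000 in HOXD (limma adjusted p = 0.176, 0.155 and 0.117).

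γH2AX islands also lay in the flanks of HOXB and HOXC after aphidicolin. The right flank of HOXC had 0% in all 5 untreated libraries, and 47.8% and 59.4% in set 1, 18.6% and 4.40% in set 2 and 0% in set 3 after aphidicolin (26.0 points, limma adjusted p = 0.0874, exact permutation p = 0.0556). With the tie at 0% in set 3, that exact p is the lowest these values allow. The right flank of HOXB had 12.8% and 12.6% in set 1, 35.2% and 0% in set 2 and 0% in set 3, again from 0% untreated. The HOXA and HOXD right flanks had none. Within libraries the γH2AX coverage of HOXC differed from that of its flanks by -6.34 ± 9.96 points (0 libraries above, 5 below and 5 at 0 in both, exact p = 0.0625, adjusted 0.500). With 5 libraries at 0 that exact p is the lowest the sign-flip test can give.

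**Figure D5:**
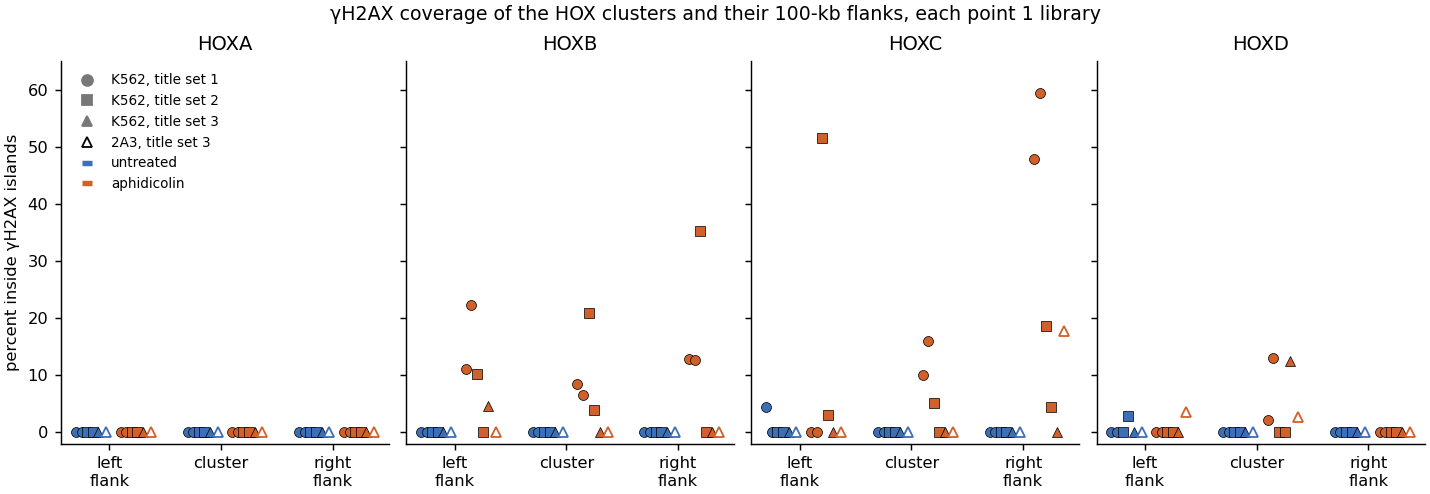
Percent of each HOX cluster and 100-kb flank inside γH2AX islands (y axis), with 1 point per library, blue for untreated and orange for aphidicolin, shaped by title set and open for line 2A3. Untreated points lie at 0 except 1 each in the left flanks of HOXC (4.40%) and HOXD (2.80%), and HOXA is at 0 throughout.

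Several γH2AX islands in the clusters recurred at one place. In HOXB 3 libraries of 2 sets overlapped on ground that macroH2A also covered, with chr17:46756401-46761400 in set 1 and chr17:46749801-46763800 and chr17:46755801-46758200 in set 2. Also in HOXB, the island chr17:46664201-46669200 had the same edges in both aphidicolin libraries of set 1, with 479 and 447 reads, and lay within the 100 kb without macroH2A. In HOXC the islands chr12:54370601-54377600 and chr12:54370801-54377800 of these 2 libraries were nearly the same, with 585 and 615 reads, next to the border of the empty stretch. A pair that both ended at 54402400, inside the empty stretch of HOXC, had 210 and 336 reads. In HOXD an island between 176962601 and 176969000 occurred in both libraries of set 1 and in the K562 library of set 3. No other γH2AX list had an island at these places, so each was seen in 2 or 3 of the 5 aphidicolin libraries of K562.

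γH2AX islands in the clusters fell on macroH2A ground and on bare ground. In HOXB the share of γH2AX length that lay in macroH2A islands, taken from the macroH2A library of equal set, treatment and replicate number, was 52.9% and 0% in set 1 and 57.0% and 92.3% in set 2. In HOXC it was 76.7% and 53.1% in set 1 and 67.7% in set 2, and in HOXD it was 100% and 67.9% in set 1. Over the whole span the same share was 62.4% and 62.4% in set 1 and 40.4% and 50.2% in set 2. The values of the clusters thus lie on both sides of those of the whole span, and each rests on 2.6 to 42.8 kb of γH2AX. They are not like for like, since macroH2A covered more of the clusters than of the span. In these libraries it covered 20.8% to 36.6% of HOXB, 12.5% to 21.8% of HOXC and 29.0% and 33.8% of HOXD. Its share of the whole span was 10.1% to 14.4%.

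With the hairpin sh-mH1.2 the clusters were almost empty of macroH2A1.2. The sh-RFP library covered 46.9% of HOXB, 29.8% of HOXC and 10.7% of HOXD, and the sh-mH1.2 library covered 1.66%, 0% and 0%. HOXA was at 0% in both. The 1 island left in HOXB was chr17:46732201-46735600, with 81 reads over 3.4 kb, and it lay in the 10-kb window that had no macroH2A1.2 island in either aphidicolin library. The flanks of HOXB went from 90.6% and 97.2% with sh-RFP to 3.0% and 0% with sh-mH1.2, and those of HOXC from 98.0% and 53.0% to 0%. The whole list fell alongside, from 13.8% to 0.781% of the span, and relative to it HOXB stood at 3.40 times the span with sh-RFP and 2.12 times with sh-mH1.2. With 1 library per hairpin there is no test, and the sh-RFP list had 75168077 reads in islands against 2022630.

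In line 2A3 the clusters were nearly free of γH2AX. The untreated library had no γH2AX island in any cluster or flank. The aphidicolin library had 1 island in the clusters, chr2:177008601-177011800 in HOXD (2.67%), which overlaps the island chr2:177005801-177011800 of the K562 aphidicolin library of the same title set. Outside the clusters it covered 17.8% of the right flank of HOXC and 3.60% of the left flank of HOXD. The K562 library beside it covered 12.5% of HOXD and 0% of the right flank of HOXC. With 1 library per line and treatment no test was made.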

How the data were processed

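The authors deposited 1 island list for each of 22 libraries, and 14 input libraries were not analysed here. Each deposited value is the raw count of reads in an island. Bowtie2 2.1.0, SICER 1.1, deepTools and hg19 are named in the submitters' processing notes, with no role given, and the file names carry W200, G600 and FDR0.01, read as a window and a gap in bp (200 and 600) and a false discovery rate (0.01). Crosslinked chromatin was digested with micrococcal nuclease, per the labels' protocols. Chromosomes Y and M were left out, and no filter for mappability was applied. Reads in islands ranged from 2022630 to 75168077 per list, and no counting interval applies to a covered length. No 2 replicate lists were copies.

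Coverage was computed in bins of 200 bp for the 4 clusters, 8 flanks of 100 kb and all 100-kb and 10-kb windows. Each target was fitted with limma 3.58.1 over all regions covered in at least 2 libraries, adding a title set term in the γH2AX fit, and Benjamini-Hochberg adjustment ran over all of them at 0.05. Contrasts between regions used exact sign-flip tests, and γH2AX also an exact permutation of treatment within title sets. Tests were checked on simulated data. edgeR 4.0.16 (quasi-likelihood) and DESeq2 1.42.0 on reads in islands, other island selections, another scale, a replicate block and leaving out each library were alternatives. Named windows are those past the threshold and the extreme in each direction per target and cluster, and named stretches are runs of at least 5 steps of 1 kb. The selection rule counts 39 genes and names 38. Genes were ordered with a RefSeq table on GRCh38.p14, in which all 38 members matched. Regulators of HOX genes were not placed, for want of an hg19 annotation. The members and lists were chosen with earlier results of these data known.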

Additional observations from a re-analysis of the deposited data

Results flagged for a closer look

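Samples far from the others of their group were looked for in the γH2AX groups of 5 K562 libraries, over the 9 groups of a cluster or flank that had any island. Chance flags about 1 group in 20 where values are spread, but a group with 1 value above 0 and the others at 0, as in the last 2 results below, is always flagged. None of the clusters was flagged. In the left flank of HOXC replicate 1 of set 2 had 51.6% after aphidicolin where the next library had 3.0%. In the same flank replicate 1 of set 1 had 4.40% in untreated cells where the other 4 had 0%. In the left flank of HOXD replicate 3 of set 2 had 2.80% in untreated cells where the other 4 had 0%.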

How the results depend on the processing

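MacroH2A1.2 in HOXC fell by 12.9 points with islands of at least 2000 bp, and by 13.7 with no filter, each without passing (limma adjusted p = 0.0578 and 0.231). On the arcsine scale its limma adjusted p was 0.0543, and with the flanks as one region the difference was 0.0625 points. The replicate numbers did not pair the libraries (correlation of deviations 0.00929, -0.0546, -0.0412 and 0.0462 over 4 comparisons of 2 pairs). The fit with the replicate block gave -13.7 points (limma adjusted p = 0.0828), and 0 of the 3 lower macroH2A1.2 windows, where 0 windows were called over the genome. HOXB as a whole became lower for macroH2A1.2 with its flanks (-18.2 points), in edgeR (adjusted p = 0.0446) and in DESeq2 (2.78e-05). These 2 tools called 1681 and 3043 of 12345 regions lower. For macroH2A1, HOXB was -6.34 points and HOXD -5.50 with equal covered length, HOXB was 13.3 with the upper 50% of islands, and HOXC with its flanks was 8.72. On island reads macroH2A1 in HOXB was lower in edgeR (adjusted p = 0.155) and in DESeq2 (0.00417), HOXC was lower in DESeq2 (8.86e-05), and HOXD was lower (0.987). Over all 12742 regions DESeq2 called 2721 lower and 2440 higher. For γH2AX the arcsine scale gave limma adjusted p = 0.0310 in HOXB, and called 4089 of 13463 regions higher. Adjusted p in edgeR was 0.00480 in HOXB and 0.0477 in HOXD, and in DESeq2 4.85e-06, 0.00269 and 0.00280 in HOXB, HOXC and HOXD. Over 10-kb windows of the genome these 2 tools called 18.3% and 44.7% higher.

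Leaving out each library in turn gave -0.879 to 2.24 points for macroH2A1 in HOXB (-0.293 without aphidicolin replicate 1), -4.58 to -2.92 in HOXC and 4.58 to 9.42 in HOXD, and for macroH2A1.2 -13.2 to -4.49, -16.2 to -11.2 and -2.0 to 0.833 (0.583 without aphidicolin replicate 1). For γH2AX it gave 4.62 to 9.90, 4.27 to 7.79 and 3.55 to 6.88. Window counts then stayed at 0, except 2 higher windows for macroH2A1 without untreated replicate 1 (9.09%, against 2.30% over the genome). The 3 lower macroH2A1.2 windows became 0 without each library, and so did the windows called over the genome.

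Lower macroH2A1.2 windows numbered 5 with equal covered length (35.7%) and 5 with the upper 50% of islands (35.7%), against 6.94% and 6.58% over the genome. They numbered 0 with no filter and 0 in edgeR, against 0.249% and 0% over the genome. DESeq2 called 7 lower (43.8%) and 1 higher (6.25%), against 19.2% and 19.1% over the genome. For macroH2A1 there was 1 lower with equal covered length (4.35%, against 1.89% over the genome). There was 1 higher with the upper 50% (5.56% against 7.60%) and 1 lower on the arcsine scale (4.17% against 0.882%). DESeq2 called 1 higher (4.17% against 13.4%) and 2 lower (8.33% against 9.49%). For γH2AX edgeR called 2 of 11 higher (18.2%) and DESeq2 6 (54.5%), near the 18.3% and 44.7% called higher over the genome. These 11 windows had islands in aphidicolin libraries only and could only come out higher.

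Over the 8 macroH2A libraries, equal covered length and the upper 50% of islands made HOXA against HOXD -6.96 and -6.92 points and HOXB against HOXC 0.180 and 3.68, HOXA against its flanks became -1.75 and -1.20, and HOXB against HOXD with equal length 9.99, none past adjusted exact p 0.05. HOXA was at 0% in each library, which fixes the sign of its differences. HOXC against HOXD passed with equal length, at 9.81. For γH2AX, equal length reversed HOXB against HOXC (-0.0163), HOXB against HOXD (-0.0996), HOXC against HOXD (-0.0833) and HOXB against its flanks (0.0371). The upper 50% reversed HOXC against HOXD (-0.467) and HOXB against its flanks (0.654), and island reads relative to the span reversed HOXC against HOXD (-0.124). Without aphidicolin set 2 replicate 1, HOXB against HOXC was -0.808, HOXB against HOXD -0.993 and HOXC against HOXD -0.185, and without aphidicolin set 1 replicate 1 the last was -0.481. The highest values without 1 library were 2.0, 2.72 and 1.78.

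With equal covered length the sh-RFP values became 0 in HOXB, HOXC and HOXD and the 2A3 value in HOXD 0, and with the upper 50% of islands the sh-mH1.2 value in HOXB became 0 and the K562 set 3 value in HOXD 2.17%. No value could be had with equal covered length for macroH2A1.2 in HOXD and γH2AX in the clusters, nor with the upper 50% for macroH2A1.2 in HOXD. The causes of these changes were not tested.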
